A study of Mus musculus with 6 samples.

Results

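Macrophage marker genes were examined in libraries prepared from THY1-positive spermatogonia of Ddx20 knockout mice and of littermate controls. The 10 genes Lyz2, Fcer1g, Tyrobp, C1qa, C1qb, C1qc, Laptm5, Cd68, Csf1r and Adgre1 were taken by name, matched through their Ensembl identifiers, from a table of 22579 genes, and all 10 were found. The knockout group held 3 libraries and the control group 3, each made at day 4 from about 1000 cells by SMART-seq2, which copies whole polyadenylated transcripts from an oligo-dT primer and amplifies them by PCR. The labels also write cKO for the knockout, and name neither the promoter that drives a deletion, nor the deleted exons, nor the number of animals behind a library. THY1 marks the surface of undifferentiated germ cells of the testis and serves to sort them, so the libraries were not made to sample macrophages. Because each library is bulk RNA, more macrophages among the sorted cells and more RNA of these genes per macrophage cannot be told apart.

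Macrophages are phagocytes that seed the testis during development and lie in its interstitium and around the seminiferous tubules. They are recognised by the receptor tyrosine kinase encoded by Csf1r, which binds the growth factors CSF1 and IL-34 and is needed for their survival, and by F4/80, the adhesion G protein-coupled receptor encoded by Adgre1. Lyz2 encodes lysozyme M, a secreted and lysosomal enzyme that cleaves bacterial cell walls. Fcer1g encodes the gamma chain shared by several Fc receptors and Tyrobp encodes the adaptor DAP12, short membrane proteins whose ITAM motifs recruit the kinase SYK. C1qa, C1qb and C1qc encode the 3 chains of C1q, the recognition unit of the classical complement pathway. Laptm5 and Cd68 encode membrane proteins of lysosomes, and Laptm5 is active in lymphocytes as well.

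Lyz2 lies next to its close paralog Lyz1, so reads could be shared between them, and their coding sequences were compared. The rest of the 1316 exon bases of Lyz2 was not compared. How the counting treated shared reads is not given, so whether reads were separated cannot be told. In GENCODE M21 (GRCm38, which is mm10) Lyz2 occupies chromosome 10, positions 117277331 to 117282321, on the minus strand, in 4 exons. Of 447 coding bases 425 were identical between the paralogs (95.1%), and the longest identical run was 118 bases, against a read length of 150 bp. The lines below give coding bases 1 to 120 of each gene, 5′ to 3′, with the 11 bases that differ in capitals.
Lyz2: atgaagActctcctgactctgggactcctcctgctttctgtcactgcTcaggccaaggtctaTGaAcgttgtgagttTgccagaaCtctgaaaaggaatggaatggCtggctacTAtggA
Lyz1: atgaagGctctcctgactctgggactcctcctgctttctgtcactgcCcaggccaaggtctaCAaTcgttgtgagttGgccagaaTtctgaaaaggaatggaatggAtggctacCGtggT
Lyz1 itself held 7, 4 and 62 reads in knockout 1 to 3 and 0, 12 and 0 reads in control 1 to 3, far below Lyz2 in each library.

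Promoters are shown for Lyz2 and Fcer1g, the members with the highest levels, and for Laptm5, the member that passed the test. The windows, from RefSeq on GRCm38.p6, run from 250 bases before to 50 bases after the start site. Windows of 6 of the 10 members were used, and the other members were not searched. Each window used was searched on both strands for GAGGAA, the PU box bound by the myeloid transcription factor PU.1. Matches are in capitals, 5′ to 3′ on the strand of the gene.
Lyz2 (chr10:117282223-117282522, minus strand): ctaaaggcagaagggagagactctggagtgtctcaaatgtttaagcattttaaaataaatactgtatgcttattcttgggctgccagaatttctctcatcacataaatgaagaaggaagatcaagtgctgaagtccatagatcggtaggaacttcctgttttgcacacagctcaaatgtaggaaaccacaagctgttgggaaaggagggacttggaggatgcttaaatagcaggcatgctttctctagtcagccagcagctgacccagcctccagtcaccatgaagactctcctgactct
Fcer1g (chr1:171234300-171234599, minus strand): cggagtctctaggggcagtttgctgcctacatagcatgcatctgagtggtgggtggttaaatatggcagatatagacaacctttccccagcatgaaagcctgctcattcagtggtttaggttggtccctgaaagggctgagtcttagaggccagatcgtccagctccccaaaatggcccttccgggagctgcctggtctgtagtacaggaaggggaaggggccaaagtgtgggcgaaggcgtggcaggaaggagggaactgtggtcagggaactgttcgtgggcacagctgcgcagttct
Laptm5 (chr4:130913066-130913365, plus strand): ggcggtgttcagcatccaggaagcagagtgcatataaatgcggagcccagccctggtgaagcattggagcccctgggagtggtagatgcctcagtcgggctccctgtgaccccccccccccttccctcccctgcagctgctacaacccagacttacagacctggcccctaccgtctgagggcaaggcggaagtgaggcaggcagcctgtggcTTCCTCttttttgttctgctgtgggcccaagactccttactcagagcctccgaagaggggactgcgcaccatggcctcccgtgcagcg
The windows of Lyz2 and Fcer1g held no match, and that of Laptm5 held 1. It lay at -38 from the RefSeq start site. GENCODE M21 begins Laptm5 further upstream, at position 130913125, so by that annotation the match lies inside the gene. In all, 4 of the 6 member windows used held a match (C1qb, C1qc, Cd68 and Laptm5), against 28.3% of all 32851 windows. This count does not cover the members that were not searched. A match is a description of the letters and not evidence of binding.

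Libraries held 11656130 to 12497967 counted reads in the knockouts and 8428871 to 11893287 in the controls. Genes with a read numbered 19127 to 19447 in the knockouts and 16822 to 18138 in the controls, fewest in control 1. Ddx20, the deleted gene, held 128, 168 and 119 reads in the knockouts and 668, 383 and 531 in the controls. Knockout 1 and knockout 2 were nearly alike: a chi-square comparison of their reads averaged 1.78 over genes, where counting noise alone gives about 1, while the other pairs of libraries (14) averaged 11.96 to 104.2. Where that pair is not 2 independent samples, the p-values given here are too low. Mitochondrially encoded transcripts took 19.8% to 20.1% of reads in the knockouts and 14.0% to 16.9% in the controls. Levels are given in CPM, reads scaled to a fixed library size after TMM normalization. The TMM factors were 0.891 to 0.928 in the knockouts and 0.956 to 1.245 in the controls, highest in control 1. The 12 markers of undifferentiated spermatogonia all had reads, and their summed level was 4239 to 4634 CPM in the knockouts and 3895 to 4689 CPM in the controls, most of it from Dazl, named after its values were seen, at 3003 to 3323 CPM in the knockouts and 2501 to 3228 CPM in the controls. Of the 12 genes 3 fell and 9 did not pass, where 2.8% of all tested genes fell. Of the 12, 9 stood below 0 on the log2 scale, with a list median of -0.56. In 7 every knockout stood lower than any control, as was so in 15.8% of all tested genes. The 3 calls became 0 with the trend with exon length and GC content removed and 6 with total counts only.

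All 10 macrophage genes were read in every library, and most stood higher in the knockouts. Laptm5 rose, and the other 9 did not pass the edgeR quasi-likelihood test at an adjusted p under 0.05. Beside that 1 of 10, 2.03% of the 14766 genes tested were called higher in the knockouts and 2.80% lower. In either direction the share was 4.83%. Scaling by total counts only gave 1.53% higher and 7.80% lower, with the median gene at -0.26 on the log2 scale and not at 0.01. The log2 fold change was above 0 in 9 members and below 0 in 1 (Csf1r), with a median of 0.60 over the 10, while 50.3% of all tested genes stood above 0. The member median was 0.31 without control 1 and 0.30 with each library's trend with exon length and GC content removed, and 7 members stood above 0 without control 1 or without knockout 3. In 5 members (Lyz2, Tyrobp, C1qa, C1qc and Laptm5) every knockout library stood above every control library, as was so in 16.8% of all tested genes, with 15.8% wholly lower and 32.6% apart in either direction. The other 5 overlapped. With total counts only, 7 of 10 stood above 0, with Adgre1 and Cd68 turning to -0.17 and -0.034.

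Other ways of testing called more of the members. DESeq2 called 4 (Lyz2, C1qc, Tyrobp and Laptm5), against 4.54% of its genes called higher, and limma-voom 3 (C1qc, Tyrobp and Laptm5), against 7.80%. EdgeR without a filter on low counts called the same 3, against 1.96% of genes. With the near-alike knockouts 1 and 2 merged into 1 library, edgeR called 0 members, against 0.00649% of genes, DESeq2 3 against 2.29% and limma-voom 1 against 1.66%.

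**Figure D1:**
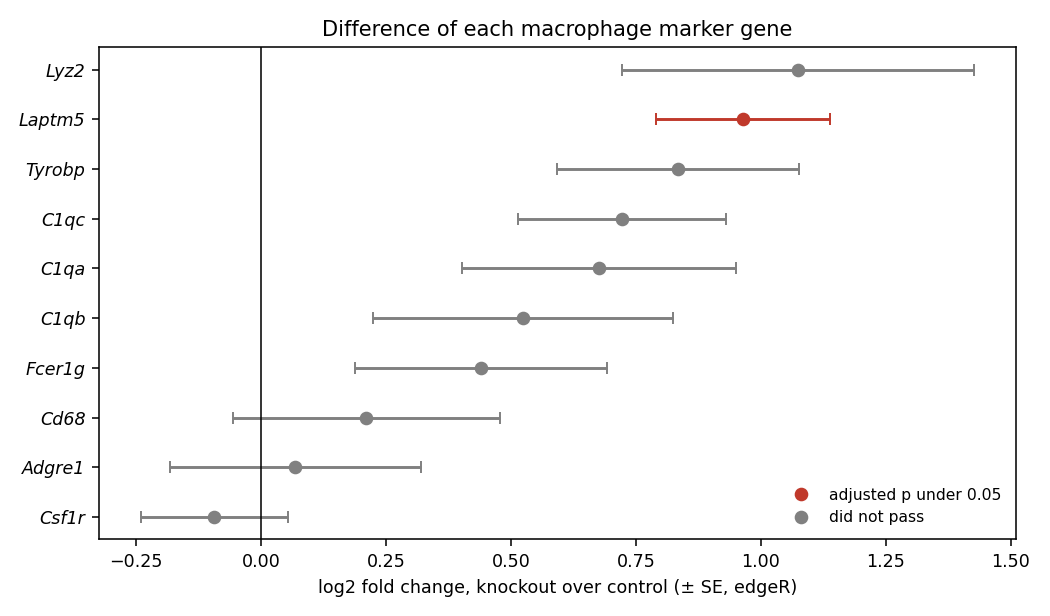
Log2 fold change of knockout over control (x axis) for each macrophage marker gene, with its standard error from edgeR. Laptm5, at 0.96, is the gene that passed at an adjusted p under 0.05, and values run down to -0.09 for Csf1r.

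Taken as 1 sum, the 10 genes reached 3129, 3276 and 4174 CPM in knockout 1 to 3 and 1274, 2869 and 2268 CPM in control 1 to 3. They took 0.289%, 0.303% and 0.371% of all reads in the knockouts and 0.158%, 0.274% and 0.249% in the controls. The groups did not overlap, and the mean sum was 1.65 times higher in the knockouts. Without Lyz2 and Fcer1g the ratio was 1.502, and without control 1, the lowest library, it was 1.37. No test was made of a sum over members.

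Lyz2 had the widest spread between libraries and, with all libraries in edgeR, the largest log2 fold change of the 10. Laptm5 exceeded it without control 1 (0.89 against 0.73), without knockout 3 (1.06 against 0.86) and in limma-voom (0.99 against 0.74). Laptm5 did so too with the trend with exon length and GC content removed (0.92 against 0.82). Lyz2 held 12118, 13897 and 19608 reads in knockout 1 to 3, which is 1126, 1261 and 1765 CPM. In control 1 to 3 it held 3184, 9538 and 9951 reads, which is 304, 905 and 763 CPM. Each knockout library was above each control library, but control 1 and control 2 differed 2.98-fold, more than the knockouts did among themselves (1.57-fold). The 95% exact Poisson interval, which covers counting error only, was 1107 to 1147 CPM in knockout 1 and 887 to 924 CPM in control 2, the nearest libraries of the groups. The means were 1384 ± 337 CPM in knockouts and 657 ± 314 CPM in controls (SD, n = 3 each). The log2 fold change was 1.07 ± 0.35 (SE), which did not pass (edgeR adjusted p 0.0997, unadjusted 0.0113). Without control 1 it was 0.73 (edgeR adjusted p 0.0656), and DESeq2 gave 1.08 with an adjusted p of 0.00797.

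Fcer1g stood at a similar level per length and differed less. Its gene lies on chromosome 1, positions 171229572 to 171234365, on the minus strand, with 748 exon bases. It had 678, 696 and 880 CPM in knockout 1 to 3 and 374, 757 and 531 CPM in control 1 to 3. Control 2 lay inside the range of the knockouts, so the groups overlapped. The means were 751.5 ± 112 CPM in knockouts and 554 ± 192 CPM in controls (SD, n = 3 each), and the log2 fold change of 0.44 ± 0.25 (SE) did not pass (edgeR adjusted p 0.319). It was 0.22 without control 1, 0.74 without control 2 (edgeR adjusted p 0.0985) and 0.15 with each library's trend with exon length and GC content removed.

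Tyrobp, the other ITAM adaptor, was the steadiest member across the knockouts. It lies on chromosome 7, positions 30413760 to 30417585, on the plus strand, with 564 exon bases. It had 426, 434 and 428 CPM in knockout 1 to 3 and 157, 334 and 232 CPM in control 1 to 3. All knockouts stood above all controls, and the highest and lowest library differed 1.02-fold within the knockouts and 2.12-fold within the controls. Its log2 fold change of 0.83 ± 0.24 (SE) missed the threshold (edgeR adjusted p 0.0734), and it passed in DESeq2 (0.0071) and in limma-voom (0.00259). Without control 1 it was 0.60 (edgeR adjusted p 0.0591). With knockout 1 and 2 merged the edgeR adjusted p was 0.233. Fcer1g stood at 1.20, 1.21 and 1.55 times Tyrobp per kilobase of exon in knockout 1 to 3, and at 1.79, 1.71 and 1.73 times in control 1 to 3. These ratios did not overlap between the groups.

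The complement genes lie side by side on chromosome 4 on the minus strand, C1qb at 136880129 to 136886187, C1qc at 136889804 to 136893065 and C1qa at 136895917 to 136898803. C1qb, the most abundant, had 396, 391 and 491 CPM in the knockouts and 154, 421 and 314 CPM in the controls. Control 2 lay within the knockout range, and the log2 fold change of 0.52 ± 0.30 (SE) did not pass (edgeR adjusted p 0.322). It was 0.21 without control 1 and 0.87 without control 2. C1qa had 101, 106 and 146 CPM in the knockouts and 41.9, 96.3 and 83.0 CPM in the controls, groups that were just apart (log2 fold change 0.68, edgeR adjusted p 0.165, and 0.39 without control 1). C1qc had 137, 133 and 164 CPM in the knockouts and 63.6, 114 and 84.9 CPM in the controls. Its log2 fold change of 0.72 ± 0.21 (SE) had an edgeR adjusted p of 0.0715 and passed in DESeq2 (0.0183) and limma-voom (0.0180). Without control 1 it was 0.54 (edgeR adjusted p 0.0827). With knockout 1 and 2 merged the edgeR adjusted p was 0.21. Per kilobase of exon, C1qa stood at 0.267 to 0.312 of C1qb in the knockouts and 0.239 to 0.285 in the controls, and C1qc at 0.301 to 0.313 of C1qb in the knockouts and 0.245 to 0.374 in the controls. Both ratios overlapped between the groups, and the spread of the second lay mostly among the controls.

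Of the lysosomal membrane genes, Laptm5 rose and Cd68 showed no separation. Laptm5 (chromosome 4, 130913125 to 130936141, plus strand) held 760, 805 and 646 reads in the knockouts and 324, 412 and 436 reads in the controls. That is 70.7, 73.0 and 58.2 CPM in knockout 1 to 3 and 31.0, 39.1 and 33.4 CPM in control 1 to 3. The groups were well apart, with means of 67.3 ± 7.99 CPM in knockouts and 34.5 ± 4.18 CPM in controls (SD, n = 3 each). On the log2 scale it rose by 0.96 ± 0.17 (SE; edgeR adjusted p 0.0205). The edgeR call was lost with knockout 1 and 2 counted as 1 library (adjusted p 0.128) and without knockout 1, 2 or 3 (0.121, 0.134 and 0.0620), with log2 fold changes of 0.92, 0.93, 0.91 and 1.06, while with that pair as 1 library DESeq2 gave 0.0254 and limma-voom 0.0268. Cd68 (chromosome 11, 69664213 to 69666153, minus strand) had 105, 103 and 152 CPM in the knockouts and 63.2, 108 and 140 CPM in the controls. The groups overlapped, and its log2 fold change of 0.21 ± 0.27 (SE) had an edgeR adjusted p of 0.679 and turned to -0.048 without control 1.

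The receptors that define the lineage stood level. Csf1r (chromosome 18, 61100598 to 61132149, plus strand) had 67.5, 59.4 and 63.0 CPM in knockout 1 to 3 and 70.3, 69.8 and 62.7 CPM in control 1 to 3. The groups overlapped, the highest and lowest of the 6 libraries differed 1.18-fold, and control 1 was the highest library instead of the lowest. Its log2 fold change was -0.09 ± 0.15 (SE), with an edgeR adjusted p of 0.747. It turned to 0.05 with the trend with exon length and GC content removed. Exons of Csf1r overlap 873 bases of Hmgxb3 on the opposite strand, which held 268 reads over all libraries, against 4370 for Csf1r. Adgre1 (chromosome 17, 57358691 to 57483527, plus strand) had 21.8, 21.1 and 25.8 CPM in the knockouts and 14.7, 26.1 and 24.5 CPM in the controls. The groups overlapped, and the log2 fold change of 0.07 ± 0.25 (SE) had an edgeR adjusted p of 0.903 and turned to -0.15 without control 1.

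**Figure D2:**
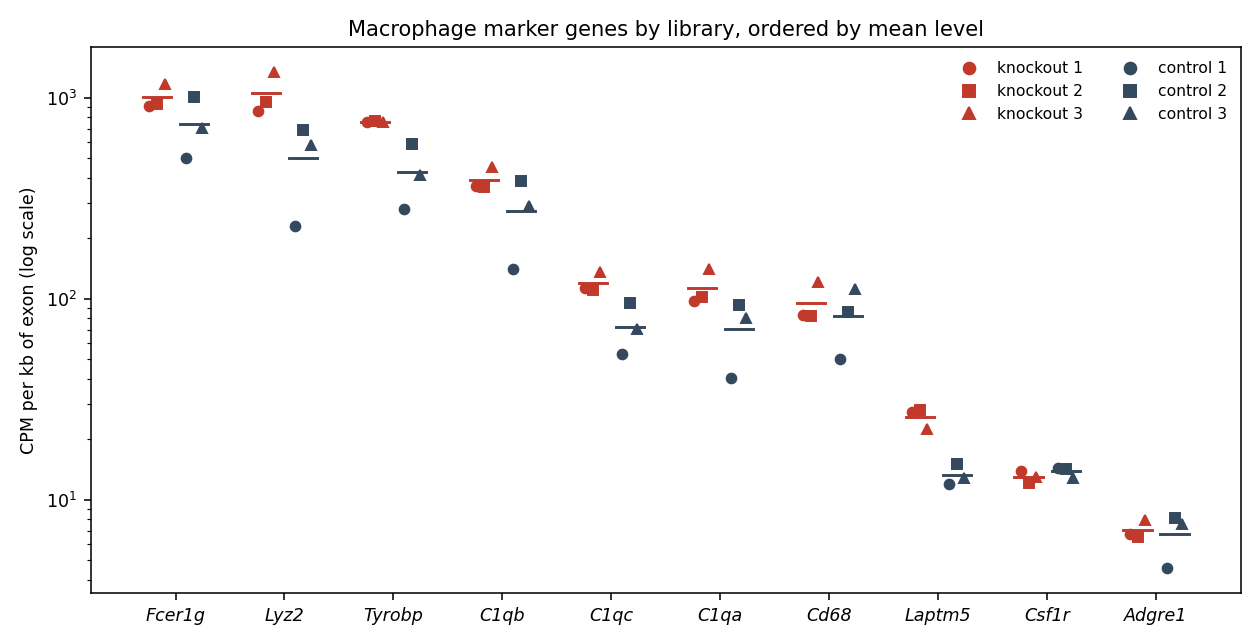
Level of each macrophage marker gene in CPM per kilobase of exon (y axis, log scale) in the 3 knockout and 3 control libraries, with a bar at each group's mean. Levels run between 1341 for Lyz2 in knockout 3 and 4.54 for Adgre1 in control 1, and control 1 is the lowest library in 9 of 10 genes.

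Per kilobase of exon the 10 genes covered a wide range. Fcer1g averaged 1005 ± 150 CPM per kilobase in knockouts and 741 ± 257 in controls (SD, n = 3 each), and Lyz2 1052 ± 256 in knockouts and 499.5 ± 239 in controls. Csf1r averaged 12.96 ± 0.828 in knockouts and 13.8 ± 0.868 in controls, and Adgre1 7.06 ± 0.783 in knockouts and 6.73 ± 1.91 in controls. Over all 6 libraries the order was Fcer1g, Lyz2, Tyrobp, C1qb, C1qc, C1qa, Cd68, Laptm5, Csf1r and Adgre1. Among neighbours in this order, the ranges of Fcer1g and Lyz2, of C1qc and C1qa, and of C1qa and Cd68 overlapped in both groups. Lyz2 and Tyrobp, Tyrobp and C1qb, and Laptm5 and Csf1r overlapped in the controls but not in the knockouts. The other 3 neighbouring pairs were apart in both groups.

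Set against Csf1r within each library, Lyz2 was apart between the groups and Fcer1g was not, while against Adgre1 both were apart. Lyz2 stood at 62.0, 78.8 and 104 times Csf1r per kilobase in knockout 1 to 3 and at 16.1, 48.2 and 45.2 times in control 1 to 3. The means were 81.6 ± 21.2 in knockouts and 36.5 ± 17.7 in controls (SD, n = 3 each). Fcer1g stood at 65.7, 76.5 and 91.2 times Csf1r in the knockouts and at 34.8, 70.8 and 55.3 times in the controls, which overlapped. Against Adgre1, Fcer1g was 135, 143 and 148 times higher in the knockouts and 110, 126 and 93.7 times in the controls, and Lyz2 127, 147 and 169 times in the knockouts and 50.9, 85.3 and 76.5 times in the controls. Adgre1 and Csf1r kept a ratio of 0.486, 0.534 and 0.616 in the knockouts and 0.316, 0.565 and 0.590 in the controls, which overlapped. These ratios are descriptions of members chosen with earlier results known, and no test was made of them. The trend with exon length and GC content was not removed from them.

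**Figure D3:**
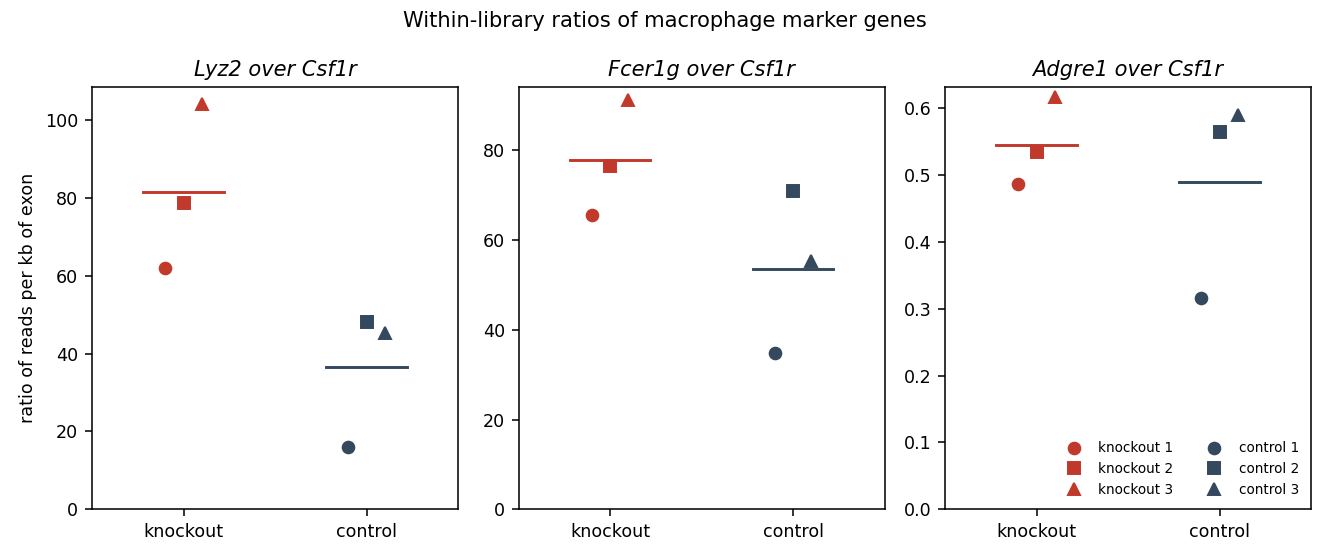
Ratio of CPM per kilobase of exon within each library (y axis, from 0) for Lyz2 over Csf1r, Fcer1g over Csf1r and Adgre1 over Csf1r, with a bar at each group's mean. Lyz2 over Csf1r is 62.0 to 104 in the knockouts and 16.1 to 48.2 in the controls, while the other ratios overlap between the groups.

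Exon length moved with this contrast. Fcer1g, Tyrobp, the C1q genes, Cd68 and Lyz2 have 564 to 1316 exon bases, while Laptm5, Adgre1 and Csf1r have 2600, 3238 and 4885. Over all tested genes the median log2 fold change was 0.29 in genes of up to 1000 exon bases and 0.28 in those above that and up to 2000. It was -0.02 in genes between 2000 and 4000 exon bases and -0.18 in longer ones. In control 1 the median deviation from a gene's mean over the libraries was -0.44 on the log2 scale in the shortest class and 0.25 in the longest. In control 2 these values were 0.07 and 0.06, and in the knockouts they lay between 0.13 and 0.23 in the shortest class and between -0.09 and -0.05 in the longest. With each library's trend with exon length and GC content removed, the log2 fold changes were 0.82 for Lyz2, 0.56 for Tyrobp, 0.41 for C1qc, 0.37 for C1qa and 0.23 for C1qb. They were 0.15 for Fcer1g and -0.085 for Cd68, beside 0.13 for Adgre1 and 0.05 for Csf1r. Laptm5 kept 0.92, with an edgeR adjusted p of 0.018.

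**Figure D4:**
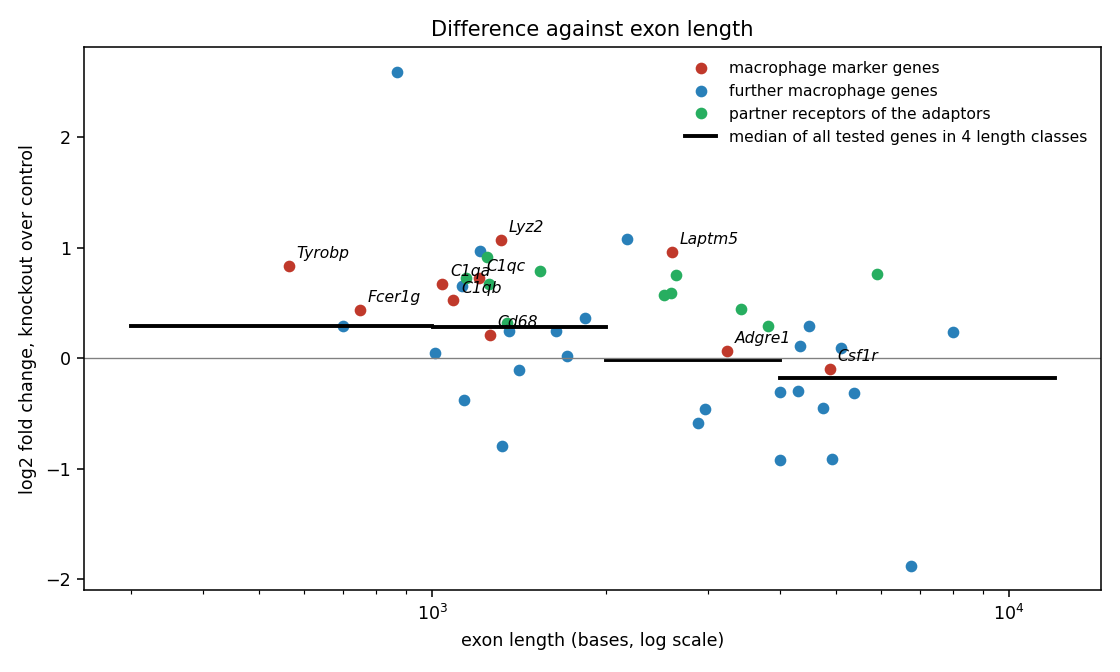
Log2 fold change of knockout over control (y axis) against exon length in bases (x axis, log scale) for tested macrophage marker genes, further macrophage genes and partner receptors of the adaptors. Black bars give the median of all tested genes in 4 length classes, which falls to -0.18 beyond 4000 bases, where Csf1r lies, against 0.29 up to 1000 bases.

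Control 1 stood apart from the other controls in most members. It held 0.365 of the mean of control 2 and 3 for Lyz2, 0.419 for C1qb, 0.468 for C1qa and 0.511 for Cd68, but 0.853 for Laptm5 and 1.06 for Csf1r. Knockout 3 was the highest library in 6 of 10 members, at 1.48 times the mean of knockout 1 and 2 for Lyz2 and 1.47 times for Cd68, while Laptm5 was lowest there among the knockouts, at 0.810 times. The make-up of the 10-gene sum differed too. Lyz2 made up 36.0%, 38.5% and 42.3% of the members' reads in the knockouts and 23.9%, 31.6% and 33.6% in the controls, which were apart. Fcer1g made up 21.1% to 21.7% in the knockouts and 23.4% to 29.4% in the controls, also apart. The shares of Csf1r (1.51% to 2.16% against 2.43% to 5.52%), Adgre1 (0.62% to 0.70% against 0.91% to 1.15%) and Cd68 (3.14% to 3.65% against 3.75% to 6.18%) were apart the same way. Those of the remaining members overlapped. Shares of 1 sum are tied, so a larger share of Lyz2 leaves less for the others.

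Other genes of tissue macrophages and monocytes went both ways. Of 30 listed genes 26 were tested, 1 rose, 1 fell and 24 did not pass, with a median log2 fold change of 0.04. Of all tested genes 2.03% rose and 2.8% fell. DESeq2 called 3, limma-voom 5 and edgeR with total counts only 4. In the knockouts 1 gene stood wholly higher and 5 wholly lower, beside 16.8% and 15.8% of all tested genes. Their summed level was 1198 to 1476 CPM in the knockouts and 959 to 1474 CPM in the controls. The gene that rose was Ly6c2, a surface antigen gene of inflammatory monocytes and of some T cells, at 11.3 ± 3.97 CPM in knockouts and 1.86 ± 0.817 CPM in controls (SD, n = 3 each; log2 fold change 2.59, edgeR adjusted p 0.0205). Its reads can be shared with close paralogs. The gene that fell was Ccr2, the chemokine receptor that brings monocytes out of the bone marrow, at 1.82 ± 0.229 CPM in knockouts and 6.73 ± 1.80 CPM in controls (SD, n = 3 each; log2 fold change -1.88, edgeR adjusted p 0.0395). Without control 1 or control 2 that call was lost, at -1.73 (edgeR adjusted p 0.0568) and -1.78 (edgeR adjusted p 0.0845), as it was without any 1 of the knockouts. Mrc1, the mannose receptor of resident macrophages, had 118, 117 and 124 CPM in the knockouts and 140, 168 and 135 CPM in the controls, groups that did not overlap, with a log2 fold change of -0.31 that did not pass (edgeR adjusted p 0.232). Mrc1 was named after its values were seen. Lyz2 stood at 39.1, 44.2 and 58.2 times Mrc1 per kilobase in the knockouts and at 8.85, 21.96 and 23.01 times in the controls. Fcer1g stood at 41.5, 42.9 and 51.1 times Mrc1 in the knockouts and at 19.2, 32.3 and 28.2 times in the controls. Both ratios were apart. Mrc1, with 5374 exon bases, was itself wholly lower in the knockouts and named with that known, so these ratios are no separate support.

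Receptors that signal through the adaptors did not pass. Of 17 listed, 11 were tested and 0 were called by edgeR or DESeq2, while limma-voom called 1 and 2 had an unadjusted edgeR p under 0.05. Over all 14766 genes tested, 3561 had such a p. The log2 fold change was above 0 in all 11, with a median of 0.67 (0.47 without control 1). But 3 of the 11 stood wholly higher in the knockouts, beside 16.8% of all tested genes, and several were near the lowest levels tested. Clec4n, the receptor Dectin-2 for fungal sugars, had 54.6, 47.5 and 53.5 CPM in the knockouts and 7.64, 32.8 and 41.9 CPM in the controls, with a log2 fold change of 0.92 and an edgeR adjusted p of 0.234. Fcgr3, a low-affinity receptor for immunoglobulin G, had 91.9, 90.3 and 108 CPM in the knockouts and 41.4, 81.6 and 109 CPM in the controls, which overlapped. The summed level of this list was 224 to 262 CPM in the knockouts and 97.3 to 213 CPM in the controls. Ms4a2, the beta chain of the IgE receptor, and Trem3 had no read.

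Genes acting after the ITAM stood level. Of 13 listed kinases, phosphatases and adaptors 12 were tested and 0 were called by edgeR, DESeq2 or limma-voom, with 0 at an unadjusted edgeR p under 0.05 and a median log2 fold change of 0.13, which was -0.14 with total counts only. Plcg2, a phospholipase, averaged 100.5 ± 3.35 CPM in knockouts and 92.9 ± 3.09 CPM in controls (SD, n = 3 each), and Pik3cd, a lipid kinase subunit, 23.5 ± 3.09 CPM in knockouts and 31.3 ± 6.57 CPM in controls. Of 12 ligands, cytokine receptors and transcription factors of the CSF1 axis, all tested, 0 were called by edgeR or DESeq2 and 1 by limma-voom, with 0 at an unadjusted edgeR p under 0.05. The transcription factor gene Maf averaged 39.4 ± 4.94 CPM in knockouts and 45.6 ± 8.29 CPM in controls, and Irf8 10.03 ± 4.96 CPM in knockouts and 11.9 ± 2.44 CPM in controls (SD, n = 3 each).

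Among 10 complement genes other than C1q, 2 rose and 8 did not pass, where 2.03% of all tested genes rose. Serping1, the inhibitor of the proteases that act with C1q, averaged 42.3 ± 0.509 CPM in knockouts and 17.4 ± 5.39 CPM in controls (SD, n = 3 each; log2 fold change 1.28, edgeR adjusted p 0.0205). C3, the central component that all complement pathways cleave, averaged 16.9 ± 3.48 CPM in knockouts and 5.75 ± 1.40 CPM in controls (SD, n = 3 each; log2 fold change 1.55, edgeR adjusted p 0.0256). Both are also made by cells other than macrophages. Of 12 close relatives of members, 9 were tested, 1 fell and 8 did not pass, where 2.8% of all tested genes fell. The one that fell was Kit, the receptor kinase related to Csf1r and a gene of differentiating spermatogonia, at 15.5 ± 2.08 CPM in knockouts and 31.5 ± 2.82 CPM in controls (SD, n = 3 each; log2 fold change -1.02, edgeR adjusted p 0.0269).

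Markers of other leukocytes that share some of these genes were read as well. The 10 natural killer cell genes had a summed level of 134 to 158 CPM in the knockouts and 73.4 to 84.8 CPM in the controls. Of these 8 were tested and 2 rose, where 2.03% of all tested genes rose. Those were Gzma, a granule protease (log2 fold change 1.28, edgeR adjusted p 0.0119), and Nkg7, a granule membrane protein (log2 fold change 0.82, edgeR adjusted p 0.0468, which was 0.355 with the trend with exon length and GC content removed). The 11 T cell genes had a summed level of 107 to 118 CPM in the knockouts and 59.9 to 69.1 CPM in the controls. Of these 10 were tested and 2 rose, beside the same 2.03%. Those were Cd3g, a T cell receptor chain (log2 fold change 1.24, edgeR adjusted p 0.0320), and the kinase gene Lck (log2 fold change 1.68, edgeR adjusted p 0.0497), and with that trend removed neither passed (Cd3g 0.86, edgeR adjusted p 0.0583, and Lck 1.57, edgeR adjusted p 0.0568). Of 8 B cell genes 4 were tested and 0 were called by edgeR, with 2 at an unadjusted p under 0.05 and 1 called by DESeq2 and by limma-voom each, and the sum was 30.0 to 33.1 CPM in the knockouts and 18.6 to 20.5 CPM in the controls. The part of these cells in the rise of Laptm5 was not tested. After knockout 1 and 2 were merged, edgeR called 0 of the 9 genes outside the members that the rule for naming took as risen or fallen (adjusted p 0.0828 to 0.219), DESeq2 called 4 (Gzma, Serping1, C3 and Kit, with no adjusted p for Ccr2 and Ly6c2), and limma-voom 6 (these, Nkg7 and Ly6c2). The merged log2 fold changes by edgeR were 1.27 for Gzma and 1.28 for Serping1, against 1.28 for each without the merge. Leaving out any 1 of the knockouts lost the edgeR call of each of the 9 genes, and for Lck any 1 library did. Without control 2 only Ly6c2 and Gzma kept theirs. With total counts only, Nkg7 (edgeR adjusted p 0.205) and Cd3g (edgeR adjusted p 0.0541) were not called.

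Granulocyte genes were few and low. Of 11 listed, 10 had a read and 4 were tested, with 0 called by edgeR or DESeq2, 1 by limma-voom and 0 at an unadjusted edgeR p under 0.05. The sum was 16.7 to 31.9 CPM in the knockouts and 9.74 to 32.1 CPM in the controls, which overlapped, and Mmp8 had no read. S100a8, a calcium-binding protein of neutrophils, averaged 7.93 ± 3.07 CPM in knockouts and 3.80 ± 1.91 CPM in controls, and the chemokine receptor gene Cxcr2 9.82 ± 1.84 CPM in knockouts and 10.1 ± 7.53 CPM in controls (SD, n = 3 each). Of 8 mast cell, basophil and eosinophil genes 4 were tested with 0 called by edgeR, DESeq2 or limma-voom and 0 at an unadjusted edgeR p under 0.05, the sum was 7.47 to 8.55 CPM in the knockouts and 4.11 to 7.82 CPM in the controls, and Mcpt4 had no read. Mcpt8, a basophil protease, averaged 2.73 ± 0.441 CPM in knockouts and 0.778 ± 0.871 CPM in controls, and Hdc, the histamine-forming enzyme, 2.52 ± 0.227 CPM in knockouts and 2.91 ± 2.75 CPM in controls (SD, n = 3 each). Markers of non-immune testis cells summed to 110 to 131 CPM for Sertoli cells, 151 to 224 CPM for peritubular myoid cells and 42.7 to 54.3 CPM for endothelial cells in the knockouts. In the controls these sums were 45.1 to 57.7, 59.1 to 75.4 and 32.1 to 39.7 CPM, so each of the 3 sums stood higher in all knockouts. Of the genes tested, 2 of 5 Sertoli cell, 2 of 4 myoid and 0 of 6 endothelial genes rose. Of all tested genes 2.03% rose. Single genes, named after their values were seen, carried the first and second sums: Clu was at 80.8 to 107.5 CPM in the knockouts and 23.1 to 34.6 CPM in the controls, and Acta2 at 136.9 to 207 CPM in the knockouts and 52.6 to 73.5 CPM in the controls. In each of the 3 lists 2 tested genes stood wholly higher in the knockouts and 0 wholly lower, beside 16.8% and 15.8% of all tested genes. The other tested genes overlapped between the groups, among them Sox9, Myh11 and Cdh5, also named after their values were seen. The lists' part in the members' values was not tested. Leydig cell genes summed to 43.8 to 61.9 CPM in the knockouts and 20.4 to 60.3 CPM in the controls, and red cell and platelet genes to 8.80 to 10.1 CPM in the knockouts and 3.92 to 23.1 CPM in the controls, and both overlapped.

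Likeness of profile was measured as the root mean square difference of log2 CPM, centred over the 6 libraries, among 9706 other named protein-coding genes with a mean of at least 5 CPM. For Lyz2 the nearest were Eif5a, Atp6v0c, Apex1, Pdlim4 and Tspan6 (0.139 to 0.181, where the median gene was at 0.873), and the nearest member was C1qa at rank 28. Among the nearest to Fcer1g were Pf4, Erg28, Emc6 and Cst3 (0.0881 to 0.0972, median gene 0.529), and the nearest member was C1qc at rank 61. Pf4, a platelet chemokine gene that resident macrophages also express, had 241, 244 and 277 CPM in the knockouts and 138, 282 and 202 CPM in the controls. For Csf1r the nearest member was Adgre1, at rank 4371.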

How the data were processed

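The deposited table held raw read counts, by Ensembl identifier, in 6 libraries. The submitters' processing notes list mm10 as build, and StringTie 2.1.7, STAR 2.7.5c, Trimmomatic 0.39, edgeR and DESeq2 without saying what each did. How reads were counted, with which annotation, strand setting and filter, is not given in the sources used here. A sum column and a mean column (other units, also deposited) were not used. Without a strand setting, reads where opposite-strand genes overlap cannot be assigned, and without molecular identifiers intervals cover counting error only.

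Names, positions and exon lengths came from GENCODE M21 (22562 of 22579 identifiers matched). The test was the edgeR 4.0.16 quasi-likelihood F test (R 4.3.3, robust dispersion, TMM, filterByExpr, genotype as sole term) over 14766 genes, with Benjamini-Hochberg adjustment and calls at 0.05. Standard errors were taken as the log2 fold change divided by root F. DESeq2 1.42.0 and limma 3.58.1 (voom with quality weights), other scalings and filters, a replicate block, leaving out each library and counting knockout 1 and 2 as 1 library (their rounded mean) were alternatives. Removing a lowess trend (span 0.3) with exon length and GC content, and DESeq2 and limma-voom on the merged libraries, were added after seeing the data. No label ties a library to an animal, so the p-values rest on spread among libraries that may be technical.

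The members and lists were chosen with earlier results of these data known. Named genes were the members, the called genes of each list (at most 4, by p) or else its 2 most abundant, and the 5 nearest profiles of Lyz2 and Fcer1g, of which 1 is not reported here. Other names are marked. The B cell, red cell, germ cell and non-immune testis lists are given by counts or sums, apart from Dazl, Clu, Acta2, Sox9, Myh11 and Cdh5. No alternative setting is given for these single genes.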

Additional observations from a re-analysis of the deposited data

How the results depend on the processing

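Of the 10 members edgeR called 1. It called 3 without a filter on low counts and 4 with the replicate block, DESeq2 called 4 and limma-voom 3. Over all genes, edgeR with the block called 312 higher in the knockouts. After merging knockout 1 and 2 edgeR called 0, with 5 members at an unadjusted p under 0.05, DESeq2 3 and limma-voom 1. Over all genes, 2150 of 15406 had such an unadjusted edgeR p after the merge. Leaving out 1 library gave 0 (without any 1 of the knockouts, with 3 to 5 members at an unadjusted p under 0.05) to 2 (without control 2). Over all genes, 2154 to 3420 had such a p without 1 of the knockouts, and edgeR called 112 higher without control 2. Over all genes the 713 calls became 1378 with total counts only, 1602 by DESeq2 and 2882 by limma-voom, and with knockout 1 and 2 as 1 library 1 by edgeR and 466 by DESeq2. They ran from 3 to 839 when 1 library was left out. The ratio of the members' sums, 1.65, ran from 1.37 without control 1 to 2.005 without control 2 and was 1.415 with total counts only. Lyz2, Fcer1g, C1qa, C1qb, C1qc, Tyrobp and Laptm5 stood above 0 in all 18 alternatives, and the lowest log2 fold change of Fcer1g was 0.15.

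Directions turned for these members, none of which passed in any setting. Adgre1 was at -0.17 with total counts only, -0.13 by limma-voom, -0.03 without knockout 3 and -0.15 without control 1, and up to 0.23 when another library was left out. Cd68 was at -0.034 with total counts only, -0.026 by limma-voom, -0.0011 without knockout 3, -0.048 without control 1, up to 0.49 without control 3, and -0.085 with the trend with exon length and GC content removed, and Csf1r was at 0.051 with that trend removed. Among other named genes Plcg2 was at -0.15 with total counts only and Maf at 0.0071 with that trend removed. Cxcr2 was at 0.19 with the replicate block, 0.01 without knockout 1, 0.06 without knockout 3, 0.74 without control 2 and -0.42 without control 1. Hdc was at 0.025 by limma-voom, 0.43 with the replicate block, 0.68 without control 3, -0.78 without control 1 and 0.11 by limma-voom with knockout 1 and 2 as 1 library. The cause was not tested.

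Same-numbered libraries did not deviate together (correlations -0.00423, 0.00884 and 0.00648), and 4 of 6 libraries correlated best with their own number. The replicate block gave 683 calls over all genes, and its members were Lyz2 (adjusted p 0.0365), C1qc, Tyrobp and Laptm5. Ccr2 was not called with the block (adjusted p 0.0603). At 1501 reads over 6 libraries Adgre1 was the least deeply read member, with 95% counting intervals of 19.1 to 24.7 CPM in knockout 1 and 12.5 to 17.2 CPM in control 1.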
